A study of Mus musculus with 10 samples.

Results

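The enzymes described here are those of mitochondrial fatty acid β-oxidation, with the proteins that bring fatty acids into the pathway, carry its electrons away or release its intermediates. They were listed by name and function, with earlier results of these data known, and comprise 35 genes of the 54347 gene records in the count table. Their transcripts were counted in poly A RNA-seq libraries of iBAT, the brown fat depot between the shoulder blades, from 10 mice, all 12 weeks old and all kept at 4 °C for 24 h before the tissue was taken. In 5 of them, the ΔGm15551 mice, a CRISPR/Cas9 deletion had removed exon 1 of Gm15551, a long non-coding RNA gene, on the C57BL/6N background, and the line had been crossed back to wild type animals for a limited number of generations. The other 5 were wild type. The mice carry the replicate numbers of their labels, which are 1, 2, 4, 5 and 7 for ΔGm15551 and 2, 3, 5, 6 and 7 for wild type. No sample in the table used here came from a mouse at room temperature, and each mouse gave 1 library.

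Mitochondrial β-oxidation shortens fatty acids in repeated rounds of dehydrogenation, hydration, a further dehydrogenation and thiolysis, and each round yields acetyl-CoA, NADH and reduced electron-transferring flavoprotein. Long-chain fatty acids are first activated to acyl-CoA and cross the inner membrane as acylcarnitines, and the first carnitine palmitoyltransferase is inhibited by malonyl-CoA. In brown fat this pathway is the main source of fuel for heat production by uncoupling protein 1 (UCP1) in the cold.

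The count totals ran from 9680976 to 15771170 per mouse. Gm15551 had 0 counts in all 5 ΔGm15551 mice and 1, 2, 6, 7 and 0 counts in wild type replicates 2, 3, 5, 6 and 7. The genotype thus cannot be checked by counts in wild type replicate 7, and hardly in wild type replicates 2 and 3. Ucp1, the defining gene of brown fat, lay between 5747 and 10989 CPM (counts scaled to library size) in every mouse. A list of 10 skeletal muscle marker genes took from 0.000137% to 0.305% of the counts, and other muscle transcripts are not included. The highest shares were in wild type replicate 7 (0.305%), ΔGm15551 replicate 4 (0.197%) and ΔGm15551 replicate 1 (0.0837%).

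One pair of members is encoded head to head. Hadha and Hadhb, the α and β subunits of the mitochondrial trifunctional protein, which carries out the last steps of a round on long-chain acyl-CoA, start on opposite strands of chromosome 5. Hadha (chr5:30118304-30155162, minus strand) and Hadhb (chr5:30155248-30184593, plus strand) leave 85 bases between their outermost annotated starts on GRCm38. This stretch is shown because the ratio of both transcripts is described below. It is given 5′ to 3′ on the plus strand, from the RefSeq promoter window of Hadhb (GRCm38.p6), with CpG dinucleotides in capitals.
Hadha-Hadhb, chr5:30155163-30155247: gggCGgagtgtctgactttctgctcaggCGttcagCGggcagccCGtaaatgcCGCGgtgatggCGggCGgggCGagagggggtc
The stretch holds 9 CpG dinucleotides and has a GC content of 69.4%, beside a median of 52.7% over all 32851 RefSeq promoter windows, each of which runs from 250 bases before to 50 bases after a start.

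Of the 35 members, 29 had such a promoter window. Nuclear receptors of the PPAR and ERR families are known activators of many of these genes and bind AGGTCA, alone or as a direct repeat. AGGTCA was searched on both strands. It occurred in 5 of the 33 member windows (15.2%), against 16.3% of all windows, so the members did not hold it more often than promoters at large. The direct repeat AGGTCANAGGTCA occurred in 0 member windows, and in 0.0396% of all. Of the matches, 3 that lie upstream of the outermost annotated start of their member are printed, 5′ to 3′ on the strand of the gene. The match or its reverse complement is in capitals, and the matches in the other member windows are not printed.
Acadvl, chr11:70015492-70015533: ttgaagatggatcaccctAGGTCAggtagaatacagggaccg
Echs1, chr7:140116481-140116522: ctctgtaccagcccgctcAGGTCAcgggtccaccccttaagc
Acadm, chr3:153944869-153944893: gTGACCTtcgggctccggtgacact
A match is a run of letters and was not tested as a binding site.

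The members were abundant in cold-exposed iBAT, and together they took 2.72% of all counts. To compare genes with each other, the count of each gene was divided by the mean length of its annotated transcripts and put on the TPM scale in each mouse, and this length-scaled level is called the level below. Of the 34 members that passed a filter on low counts, 26 had a mean level over the 10 mice of at least 100, and 12 of at least 1000. With the length of the longest transcript 8 members reached 1000, and with the union of all exons 5 did. With the mean length, the highest was Acadvl at 2750 and the lowest of the 34 was Acsl4 at 9.07, a span of 303.4-fold. The span was narrower with the other lengths. The same 2 genes stood at 1985 and 9.94 with the longest transcript, and the extremes with the exon union were Acadl at 2138 and Acad12 at 10.5. The order depends on the transcript length that is assumed. Acadm was second and Hadhb the third with the mean length, but with the length of the longest transcript they ranked 5 and 7, and Acsl1 moved from 5 to 10, so neighbours in the order are not told apart here.

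**Figure D1:**
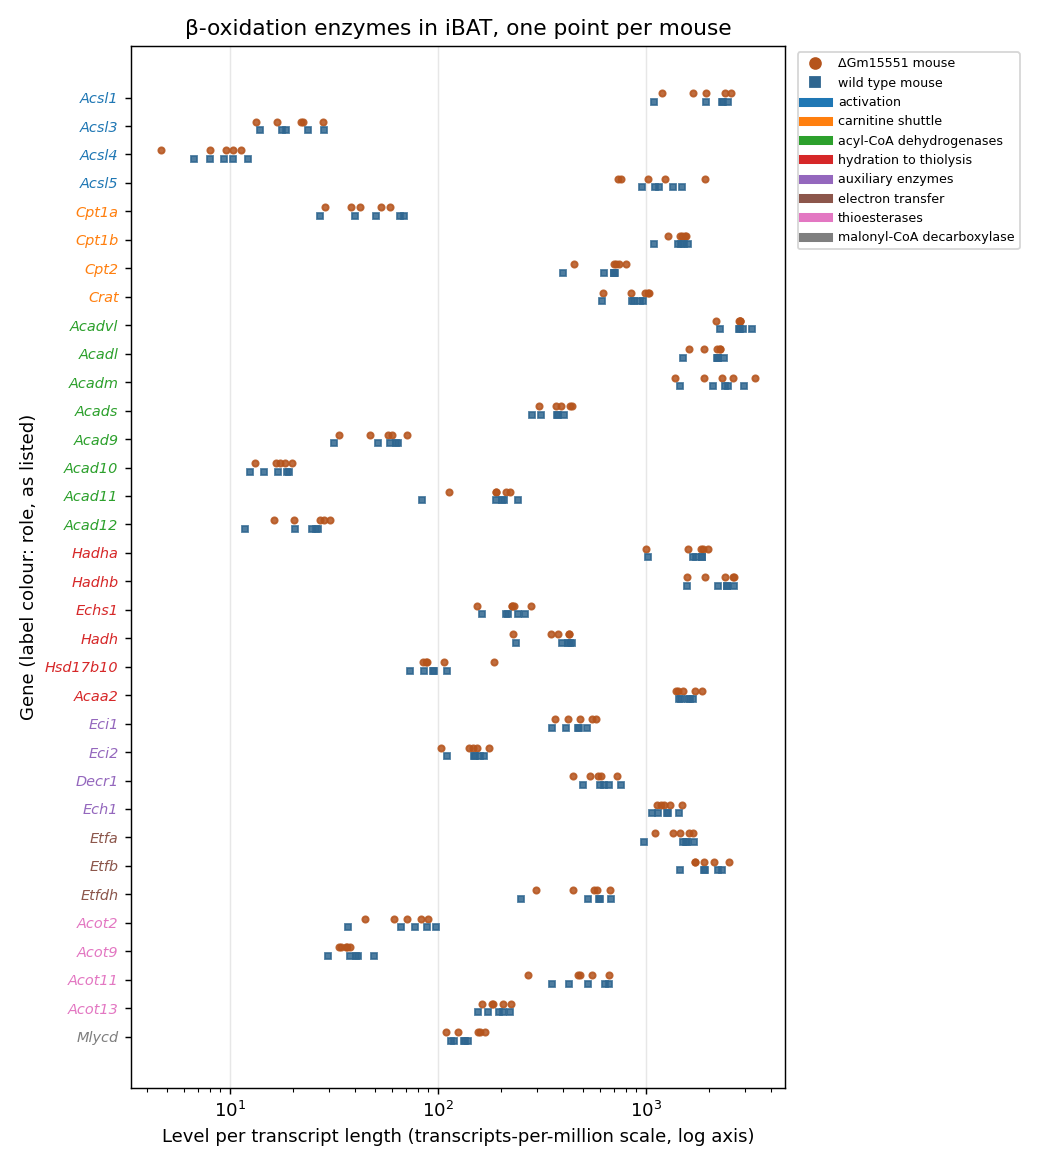
Length-scaled level of the 34 members above the count filter, on a log axis, with 1 point per mouse (circles ΔGm15551, squares wild type) and gene labels coloured by role. The 2 genotypes overlap in every gene, and the levels run from about Acsl4 (mean 9.07) to Acadvl (mean 2750).

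The acyl-CoA dehydrogenases, which start each round, held 28.2% of the summed member level. The enzymes from hydration to thiolysis held 22.4%, electron transfer 14.4%, activation 11.6%, the carnitine shuttle 10.99%, the auxiliary enzymes for unsaturated chains 8.96%, the thioesterases 2.92% and malonyl-CoA decarboxylase 0.495%. With the longest transcript or the exon union, activation held only 6.96% or 6.07%, less than the carnitine shuttle (8.66% or 10.004%) and the auxiliary enzymes (10.7% or 8.39%), and malonyl-CoA decarboxylase held 0.878% or 1.16%. The dehydrogenases for very long, medium and long chains (Acadvl at 2750, Acadm at 2299 and Acadl at 2074) stood well above the short-chain enzyme Acads at 369. Acad11, Acad9, Acad12 and Acad10, further members of that family, had mean levels of 186, 53.8, 23.2 and 16.8. Within the later steps, Hadhb (2253), Hadha (1644) and the thiolase Acaa2 (1573) exceeded the other enzymes. These were Hadh, which oxidises hydroxyacyl-CoA (373), the hydratase Echs1 (221) and Hsd17b10 (102), a dehydrogenase that also acts on branched-chain intermediates. Of the auxiliary enzymes, the dienoyl-CoA isomerase Ech1 reached 1252, the reductase Decr1 606, and the enoyl-CoA isomerases Eci1 and Eci2 463 and 146. The electron-transferring flavoprotein subunits Etfb and Etfa reached 1980 and 1451, and Etfdh, which passes the electrons on to ubiquinone, 521. Among thioesterases, which hydrolyse acyl-CoA back to the free acid, Acot11, first described in brown fat, had the highest level (504), followed by Acot13 (191), Acot2 (71.6) and Acot9 (37.6).

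The genotype comparison asked whether loss of Gm15551 altered expression of these enzymes in the cold. No member differed between ΔGm15551 and wild type. At an adjusted p under 0.05 (edgeR quasi-likelihood test, Benjamini-Hochberg adjustment over 13733 genes), 0 of the 34 members that passed the count filter were called, and 0% of all genes were called. At an unadjusted p under 0.05 there were again 0 members, while 220 of all genes tested (1.6%) met it. DESeq2 and limma-voom likewise called 0 members and 0 of all genes. At an unadjusted p under 0.05 both gave 0 members, against 1.67% of all genes with DESeq2 and 1.81% with limma-voom. No member had groups that did not overlap, against 0.32% of all genes. The log2FC (ΔGm15551 over wild type) was above 0 in 16 members and below 0 in 18, with a median of -0.0018 beside -0.0010 over all genes.

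The intervals state how large a difference the data would still allow. The 95% interval of the log2FC stayed within 2-fold in either direction in 34 of 34 members, against 90.2% of all genes, and within 1.5-fold in 29, against 66.1% of all genes. Over the members, the lowest lower bound was -0.70 (Cpt1a) and the highest upper bound 0.67 (Hsd17b10). In all 34 members the difference was smaller than 1 SD of log2 CPM over the 10 mice. Adjusted p was 0.99998 (edgeR) for every member.

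**Figure D2:**
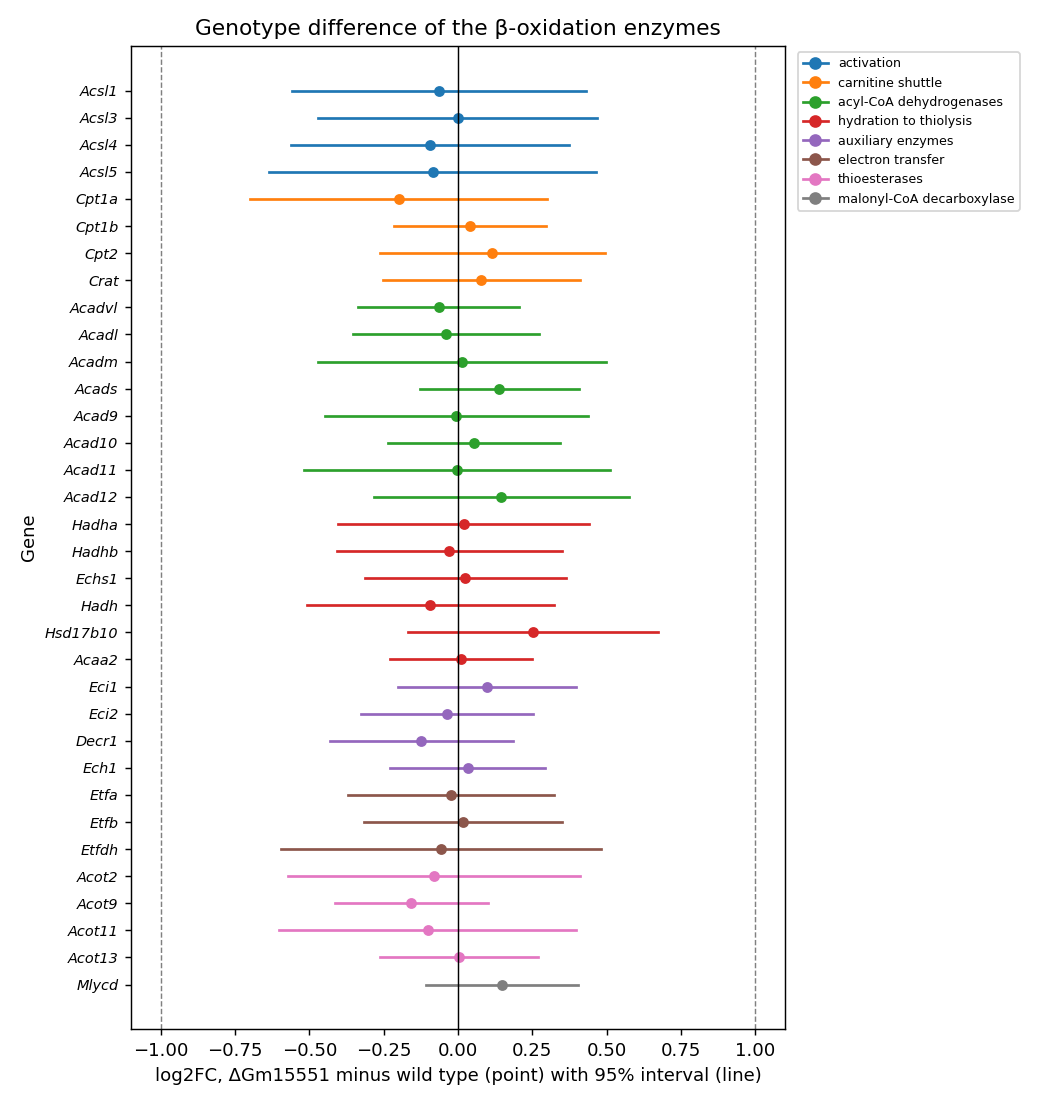
The log2FC of each of the 34 members (point; ΔGm15551 minus wild type, n = 5 mice per group) with its 95% interval (line), coloured by role, with dashed lines at 2-fold. Every interval crosses 0, and the points lie between -0.20 (Cpt1a) and 0.25 (Hsd17b10).

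Activation is carried out by long-chain acyl-CoA synthetases, which couple fatty acids to coenzyme A. All 4 tested synthetases had log2FC values just below 0, from -0.09 to -0.0015, and 0 were called. The value of Acsl5 depended on 1 mouse, as it was -0.08 with all mice and -0.40 without ΔGm15551 replicate 7. Acsl1 (chr8:46471037-46536051, plus strand), the main synthetase of adipocytes, had 1752, 3468, 3286, 2327 and 2943 CPM in ΔGm15551 replicates 1, 2, 4, 5 and 7. In wild type replicates 2, 3, 5, 6 and 7 it had 2628, 3565, 3262, 3333 and 1621 CPM. The lowest values were those of ΔGm15551 replicate 1 and wild type replicate 7, and the groups overlapped over most of their range. The means were 2755 ± 710 and 2882 ± 786 CPM (SD, n = 5 each), with a log2FC of -0.06 (SE 0.23).

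Acsl1 and Acsl5 made up nearly all of the synthetase level, but in proportions that varied from mouse to mouse. The share of Acsl1 in the summed level of the Acsl genes ran from 49.8% in ΔGm15551 replicate 7 to 76.5% in ΔGm15551 replicate 2, and that of Acsl5 from 22.6% to 49.2% in the same mice. Acsl5, which is linked to several membranes of the cell, had 1814 CPM in ΔGm15551 replicate 7 and 638 to 1316 CPM in the other mice. Both extremes of the Acsl1 share thus fell within 1 genotype. With the mean transcript length, Acsl3 and Acsl4 stayed under 1% of the synthetase level in each mouse. With the exon union their mean levels were 12.9 and 11.1, beside 537 for Acsl1 and 422 for Acsl5. Acsl6, best known from brain, did not pass the filter. It had 0, 0, 6, 2 and 0 counts in the ΔGm15551 mice and 0, 0, 1, 1 and 4 in wild type. A count of 3 corresponds to 0.195 to 0.308 CPM in these libraries. The Acsl6 counts lay around this floor, and no genotype difference is given for it.

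The carnitine shuttle consists here of the first transferase, present as Cpt1a and Cpt1b, of the inner-membrane transferase Cpt2, and of Crat, which acts on short-chain acyl groups. Cpt1b, the muscle and brown fat form, made up 95.4% to 98.1% of the summed Cpt1 level, and Cpt1a, the form dominant in liver, the small rest. Cpt1b (chr15:89416405-89425863, minus strand) had 1258, 1401, 1436, 1389 and 1489 CPM in the ΔGm15551 mice, and 1383, 1378, 1516, 1415 and 1091 CPM in wild type. Its means of 1395 ± 85.9 and 1357 ± 158 CPM gave a log2FC of 0.04 (SE 0.12). Cpt1a (chr19:3322334-3385733, plus strand) had 47.5, 61.0, 68.5, 49.7 and 36.7 CPM in the ΔGm15551 mice, and 57.3, 83.8, 78.9, 48.3 and 33.99 CPM in wild type. Cpt1a varied more than Cpt1b relative to its level, and both the highest and the lowest value came from wild type mice. Its log2FC of -0.20 (SE 0.23), the lowest of the members in the main edgeR fit with all mice, had an unadjusted p of 0.403. Without wild type replicate 3 it was -0.06, and without wild type replicate 7 it was -0.35.

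The log2 ratio of Cpt1b to Cpt1a CPM averaged 4.76 ± 0.37 over the ΔGm15551 mice and 4.55 ± 0.40 over the wild type mice (SD, n = 5 each). The difference of 0.20 was within the spread (exact permutation test, two-sided, p = 0.437, 0.833 adjusted over 3 ratios; the smallest p the design allows is 0.00794). With 1 mouse left out, the difference ranged from 0.06 (without ΔGm15551 replicate 7) to 0.32 (without wild type replicate 7). Most 31-base words of Cpt1b transcripts recur in Gm44502, a readthrough record that overlaps it, but Gm44502 held only 117 to 375 counts per mouse, or 0.593% to 2.19% of Cpt1b, and the sum of both records gave means of 1412 ± 80.3 and 1373 ± 154 CPM. Cpt2 and Crat had log2FC values of 0.12 and 0.08.

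**Figure D3:**
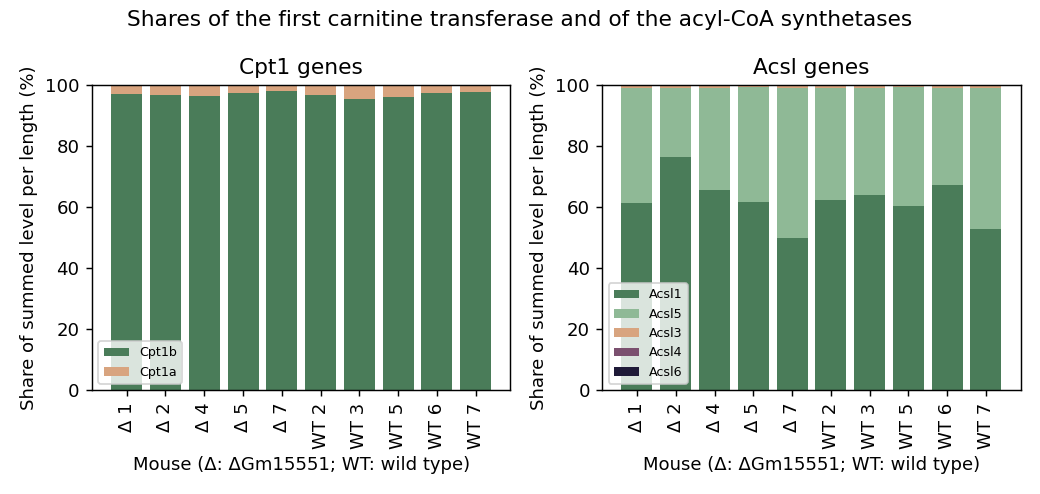
Share of each gene in the summed length-scaled level of the Cpt1 genes (left) and of the Acsl genes (right), in percent, with 1 bar per mouse. Cpt1b holds 95.4% to 98.1% in each mouse, while Acsl1 holds from 49.8% (ΔGm15551 replicate 7) to 76.5% (ΔGm15551 replicate 2).

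The acyl-CoA dehydrogenases introduce the first double bond and differ in the chain length they accept. Of the 8 tested, 4 had a log2FC above 0 and 4 below 0, from -0.07 to 0.15, and 0 were called. Acadvl (chr11:70010183-70015411, minus strand), the very long-chain enzyme, had 2030, 2428, 2480, 2466 and 2740 CPM in the ΔGm15551 mice and 2511, 2606, 2915, 2536 and 2141 CPM in wild type. Its values varied little, with 1 low mouse in each group, and the log2FC was -0.07 (SE 0.13). Acadl (chr1:66830839-66863277, minus strand), the long-chain enzyme, had 1732, 2242, 2195, 1947 and 2519 CPM against 2184, 2500, 2305, 2301 and 1647 CPM, with a log2FC of -0.04 (SE 0.14).

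Acadm (chr3:153922357-153944632, minus strand), the medium-chain enzyme, varied more. It had 916, 2047, 1446, 1201 and 1816 CPM in the ΔGm15551 mice and 1292, 1617, 1549, 1915 and 988 CPM in wild type. The lowest and the highest value both came from ΔGm15551 mice, and the log2FC was 0.01 (SE 0.22). Acads (chr5:115110299-115119346, minus strand), the short-chain enzyme, had 326, 420, 389, 443 and 407 CPM against 369, 329, 414, 386 and 304 CPM. Its log2FC of 0.14 (SE 0.12) had an unadjusted p of 0.282. Acad10 and Acad12 lie 2087 bases apart on chromosome 5 and share sequence, so that reads could be split between them, and their summed means were 71.8 ± 10.8 and 66.9 ± 12.2 CPM. A further record, Dvl2, overlaps Acadvl and shares sequence with it.

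From hydration to thiolysis, 4 of 6 genes had a log2FC above 0 and 2 below, and 0 were called. Hadhb had 1957, 3034, 2789, 2264 and 3362 CPM in the ΔGm15551 mice and 2532, 3256, 2948, 2954 and 1984 CPM in wild type, with a log2FC of -0.03 (SE 0.18). Its partner Hadha had 1339, 2426, 2273, 2011 and 2579 CPM against 2068, 2425, 2381, 2238 and 1379 CPM. The 2 transcripts varied together over mice, as most members did (described below), and pairs other than the 3 ratios were not compared. The log2 ratio of Hadha to Hadhb had an SD of 0.114 over the 10 mice. Hadha alone had an SD of 0.336 and Hadhb one of 0.283 in log2 CPM. The ratio averaged -0.34 ± 0.14 over the ΔGm15551 mice and -0.39 ± 0.09 over the wild type mice, a difference of 0.05 (exact permutation test, two-sided, p = 0.556, 0.833 adjusted over 3 ratios). With 1 mouse left out, it ranged from 0.0035 (without ΔGm15551 replicate 5) to 0.0975 (without ΔGm15551 replicate 1).

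Hsd17b10 (chrX:152001845-152004442, plus strand) had the highest log2FC of the members, 0.25 (SE 0.19, unadjusted p 0.215). The values were 68.5, 138, 65.6, 81.8 and 73.8 CPM in the ΔGm15551 mice and 70.9, 57.9, 66.5, 86.1 and 77.2 CPM in wild type. A single mouse, ΔGm15551 replicate 2, stood at 138 CPM, and the others of its group lay within the wild type range. Without that mouse its log2FC was 0.01. Acaa2, the thiolase, was the steadiest member, with an SD of 0.10 in log2 CPM over the 10 mice and a log2FC of 0.01. Echs1 and Hadh had log2FC values of 0.02 and -0.09.

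The auxiliary enzymes bring double bonds of unsaturated fatty acids into the position or form the cycle can use, and 0 of 4 were called. Decr1 (chr4:15917240-15945507, minus strand), the mitochondrial dienoyl-CoA reductase, had 504, 751, 641, 574 and 686 CPM in the ΔGm15551 mice and 624, 838, 681, 725 and 569 CPM in wild type. The ranges largely coincided, and the log2FC was -0.12 (SE 0.14, unadjusted p 0.401). Eci1, Eci2 and Ech1 had log2FC values of 0.10, -0.04 and 0.03.

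Electron transfer from the dehydrogenases to the respiratory chain runs through Etfa, Etfb and Etfdh, and 0 of the 3 were called, with log2FC values of -0.02, 0.02 and -0.06. Unlike Hadha and Hadhb, the partner transcripts Etfa and Etfb did not keep a constant ratio. Their log2 ratio ran from -0.67 in wild type replicate 7 to 0.79 in wild type replicate 3, with an SD of 0.452 over the 10 mice against 0.252 and 0.234 for the single genes. Etfa had 760, 1018, 935, 879 and 1204 CPM in the ΔGm15551 mice and 998, 1154, 995, 1038 and 685 CPM in wild type. Etfb had 987, 809, 748, 1108 and 824 CPM, and 950, 665, 857, 857 and 1092 CPM. The 3 mice in which Etfb exceeded Etfa were ΔGm15551 replicates 1 and 5 and wild type replicate 7. The genotypes did not differ in the ratio (difference -0.04; exact permutation test, two-sided, p = 0.905, also after adjustment over 3 ratios).

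The ratio was set beside a measure of transcript length. Etfb transcripts are short (mean annotated length 553 bases, against 821 for Etfa). The correlation between transcript length and a gene's deviation in a library, over all genes as a description, was negative in the 3 mice named above (Spearman's rho -0.09, -0.27 and -0.15) and also in wild type replicate 2 (-0.02), while it reached 0.21 in wild type replicate 3. In ΔGm15551 replicate 7, however, which had the second highest ratio (0.55), it was only 0.0072. After a correction of each library for transcript length and GC content, the SD of the Etfa to Etfb ratio was 0.283, and that of the Hadha to Hadhb ratio 0.0975. This correction takes length and GC content together. The part of length alone in the spread of the Etfa to Etfb ratio was not tested.

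**Figure D4:**
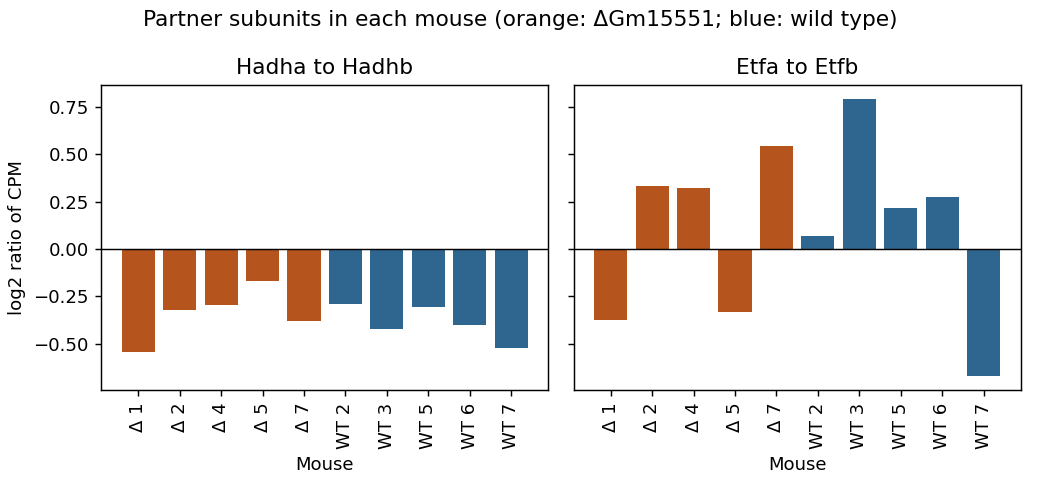
The log2 ratio of CPM for Hadha to Hadhb (left) and Etfa to Etfb (right), with 1 bar per mouse (orange ΔGm15551, blue wild type) on a common axis. The first ratio stays between -0.55 and -0.17, while the second runs from -0.67 to 0.79 with both signs in each genotype.

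The thioesterases release free fatty acids from acyl-CoA, and 0 of 4 were called, 1 with a log2FC above 0 and 3 below. Acot9 (chrX:155262443-155297654, plus strand) had the smallest unadjusted p of the members, 0.209, with a log2FC of -0.16 (SE 0.12). It had 36.3, 33.6, 35.3, 31.8 and 35.4 CPM in the ΔGm15551 mice and 37.9, 48.4, 39.1, 36.8 and 29.98 CPM in wild type. The ΔGm15551 values lay close together within the wild type range, at whose ends stood wild type replicates 7 and 3. Acot2 shares sequence with the cytosolic Acot1, which held 27.9% to 50.5% as many counts, and the sum of both gave 172 ± 35.1 and 182 ± 57.7 CPM. Acot2, Acot11 and Acot13 had log2FC values of -0.08, -0.10 and 0.003. Mlycd (chr8:119394878-119411102, plus strand), malonyl-CoA decarboxylase, which removes the inhibitor of the first carnitine transferase, had 232, 304, 317, 339 and 275 CPM in the ΔGm15551 mice and 273, 251, 273, 278 and 249 CPM in wild type. Its log2FC was 0.15 (SE 0.12, unadjusted p 0.231). The groups overlapped, and ΔGm15551 replicate 1 had the lowest value of all 10 mice.

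The members varied together between mice. Most members were low in a single mouse of each genotype, namely ΔGm15551 replicate 1 and wild type replicate 7. This was seen in the values of the members themselves and is given as a description with no test. The median deviation of the 34 members from their own mean over the 10 mice was -0.39 log2 units in the former and -0.37 in the latter, against -0.02 to 0.19 in the other 8 mice. Below their mean were 31 and 32 members, against 5 to 18 in the other mice, while of all genes 49.3% and 49.8% were below their mean in these mice and 46.2% to 49.7% in the others. The members took 2.06% and 2.05% of the counts in these mice and 2.67% to 2.98% in the others.

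**Figure D5:**
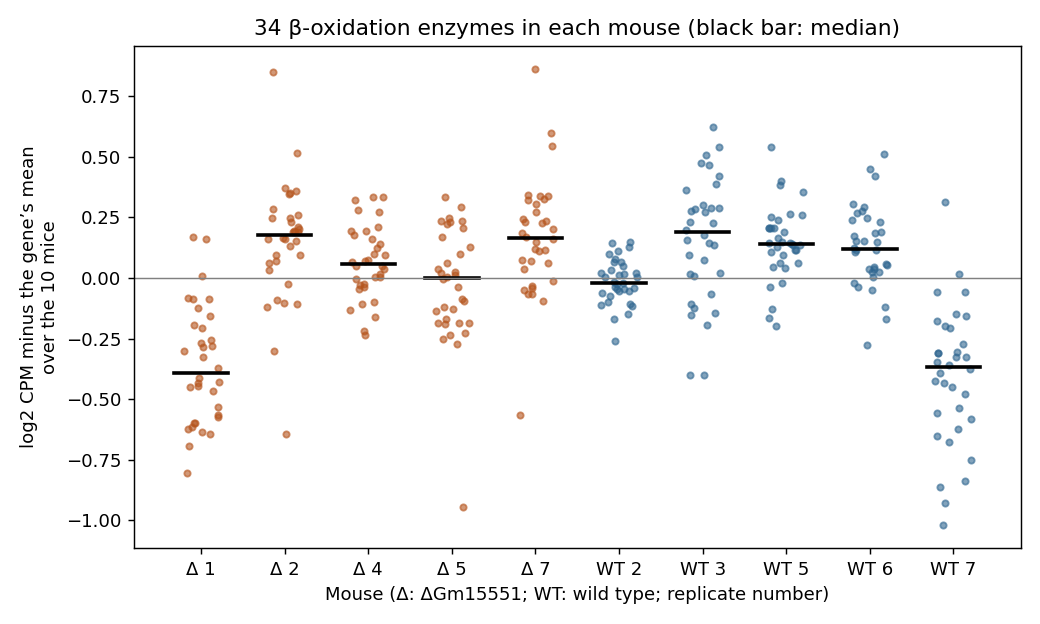
The log2 CPM of each of the 34 members minus its mean over the 10 mice (points), by mouse, with the median as a black bar (orange ΔGm15551, blue wild type). The bars of ΔGm15551 replicate 1 and wild type replicate 7 lie below those of the other 8 mice, and those of the other 8 scatter around or just above 0.

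Relative to the mean of the other 4 mice of its own group, the median member stood at -0.46 log2 units in the ΔGm15551 mouse and at -0.49 in the wild type mouse, where the median of all genes tested was 0.005 and 0.004. In ΔGm15551 replicate 1, 25 of 34 members had the lowest value of their group, against 27.4% of all genes. In wild type replicate 7, 30 members had it, against 32.6% of all genes. The same 25 members were lowest in both (73.5%), against 18.3% of all genes, and 4 were lowest in neither. In bulk tissue, differences in cell makeup, in RNA per cell and between libraries cannot be told apart, and the cause was not tested.

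The decrease was uneven over the pathway. Among the genes furthest below their group, picked after their values were seen, were Etfdh (-0.84 and -1.18 log2 units relative to the mean of the other 4 mice, in the same order), Acad11 (-0.78 and -1.25), Acsl1 (-0.76 and -0.97), Acot2 (-0.69 and -1.07), Hadha (-0.79 and -0.72) and Acadm (-0.80 and -0.68). Acadvl (-0.32 and -0.30) and Cpt1b (-0.18 and -0.38) moved less. The 4 members that were lowest in neither mouse were Acaa2 (-0.11 and -0.07), Hsd17b10 (-0.33 and 0.15), Acot13 (0.20 and -0.07) and Etfb, which lay above the mean of the other 4 in both (0.20 and 0.40). Acot13 and Etfb have the shortest transcripts of the members, with mean lengths of 434.5 and 553 bases. After the correction for length and GC content, Etfb stood at -0.06 and -0.07 and Acot13 at -0.08 and -0.53, the median deviation of the members from their mean was -0.39 and -0.44, and 32 of 34 members were below the mean of the other 4 in both mice, against 30 before it.

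Markers of other cell types also differed in these mice. All 10 skeletal muscle markers were above the mean log2 CPM of the other 4 mice in both, with median log2 differences of 4.67 and 7.48. Their summed level ran from 1.35 to 1957 CPM in ΔGm15551 and from 1.56 to 3027 CPM in wild type. In ΔGm15551 replicate 4, the skeletal muscle markers took a larger share of the counts than in ΔGm15551 replicate 1. The median deviation of the members in ΔGm15551 replicate 4 was 0.06. The 5 red blood cell markers and the 3 endothelial markers were also above that mean in both, with medians of 0.72 and 1.66, and of 0.34 and 0.56. The medians of the 3 white adipocyte markers were 1.15 and 0.24, and those of macrophages and lymphocytes 0.73 and -0.23. Of the brown adipocyte markers 6 of 9 were below that mean in both mice, with medians of -0.15 and -0.20. Ucp1 (-0.79 and -0.43), Dio2 (-0.34 and -0.64) and Prdm16 (-0.44 and -0.70) were lowest of their group in both, whereas Cox8b (0.54 and 0.65) and Cox7a1 (0.44 and 0.42) lay above that mean in both. Of the general adipocyte markers 3 of 5 were below it in both, with medians of -0.11 and -0.26, while Fabp4 (0.16 and 0.29) was above it in both and Lpl stood at 0.18 and -0.09. The part of cell makeup in the low values was not tested.

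Without both of these mice, which leaves 4 per genotype, 0 members were called and the median log2FC of the members was -0.02. Leaving out 1 of them alone moved the members as a group. Without ΔGm15551 replicate 1, 27 of 34 members had a log2FC above 0 (median 0.06), and without wild type replicate 7, 5 did (median -0.11), with 0 called in either case.

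The other genes around the pathway showed no called difference between genotypes either. Of the carriers and entry proteins (8 tested, among them the carnitine-acylcarnitine carrier Slc25a20 and the fatty acid transporter Cd36), 0 were called in either direction and 0 passed an unadjusted p of 0.05. The same counts held for the 4 malonyl-CoA genes, the 17 peroxisomal oxidation genes, the 24 other acyl-CoA enzymes (of 27 listed) and the 15 regulators tested. The smallest unadjusted p values in these lists belonged to Slc22a4, a cation and ergothioneine transporter (log2FC -0.20, p 0.451), and Slc27a4, a fatty acid transport protein (0.07, p 0.520), to Acacb, the mitochondria-bound acetyl-CoA carboxylase (0.13, p 0.529), and Mcat, of mitochondrial fatty acid synthesis (0.07, p 0.554). They belonged further to the peroxisomal bifunctional enzyme Ehhadh (0.32, p 0.311) and the peroxisomal coenzyme A hydrolase Nudt7 (-0.11, p 0.367), and to Acsm3, a medium-chain synthetase (0.67, p 0.128), and the thioesterase Them4 (-0.20, p 0.197). Among regulators they were the corepressor Nrip1 (0.33, p 0.0803) and the orphan receptor Esrrb (-0.42, p 0.0837). Of the 39 cell type markers tested 0 were called, and 2 reached an unadjusted p under 0.05, against 1.6% of all genes, namely Adrb3, the β3-adrenergic receptor (log2FC 0.50, p 0.00253), and Lep, leptin (-1.14, p 0.00314). The median log2FC of the regulators was 0.06 and that of the peroxisomal genes -0.02.

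In the pair of mice with low member values, these lists differed among themselves. Of the 24 other acyl-CoA enzymes, which serve mainly amino acid and short-chain metabolism, 22 were below the mean of the other mice of their group in both, with medians of -0.61 and -0.57, beside -0.46 and -0.49 for the members. For Mmut, methylmalonyl-CoA mutase, the values were -1.01 and -1.06. Of the peroxisomal genes 13 of 17 were below in both (medians -0.31 and -0.41), of the regulators 13 of 15 (-0.42 and -0.43), of the malonyl-CoA genes 4 of 4 (-0.87 and -0.22), and of the carriers and entry proteins 5 of 8 (-0.08 and -0.29). All genes gave 37.3% below in both. The coactivator Ppargc1a was at -0.15 in the ΔGm15551 mouse and -1.48 in the wild type mouse, and the receptor Esrra at -0.10 and -0.01.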

How the data were processed

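Poly A libraries of iBAT (NEBNext Ultra II, paired-end NovaSeq reads) were trimmed with cutadapt and quantified with Salmon against GENCODE transcripts of GRCm38, per the study's methods and the submitters' processing notes. Whether counting used strand is not given in the sources used here. The deposited table holds expected counts per gene from Salmon, made by the authors. They were used as deposited, without rounding here, and 0 columns belonged to other samples. All 10 columns matched a sample title, and groups came from the labels.

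Genes passed edgeR's filterByExpr (minimum count 10, minimum total 15). This left 13732 genes, to which Gm15551 was added. CPM values were scaled by TMM factors. The test was edgeR's robust quasi-likelihood F test with genotype as the only term (edgeR 4.0.16, R 4.3.3), with Benjamini-Hochberg adjustment, an SE of the absolute log2FC divided by the root of F, and a 95% interval. The common biological coefficient of variation was 0.229. The model was tested on simulated data. Totals were 9680976 to 15771170 counts, and the spread between mice exceeded counting error. Floors of 3 counts cover counting error only. Replicates are separate mice. No 2 libraries of a group agreed within sampling noise (smallest chi-square per degree of freedom 12.4).

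Levels used the mean length of GENCODE M21 transcripts on the same assembly, available for 99.5% of records. Shared sequence was counted in 31-base words. Ratios (prior count 0.5) were compared by an exact permutation test over 252 assignments (scipy 1.17.1). The correction for length and GC content was a loess curve (span 0.3) fitted per library.

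All members were named. Values by mouse and full statistics were given for the 5 members of highest level, the 5 of smallest p, the 3 of largest absolute log2FC, Cpt1a and Cpt1b. From each pathway list the 2 genes of smallest p were named where none had an unadjusted p under 0.05. Values of other genes and of markers were added after they were seen. The members and lists were chosen with earlier results of these data known. Alternatives were DESeq2 1.42.0, limma-voom 3.58.1, other scalings and filters, a muscle covariate, a replicate block, and mice left out.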

Additional observations from a re-analysis of the deposited data

Results flagged for a closer look

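In 6 of the 78 groups of 5 mice examined, 1 mouse lay far from the others by Dixon's test (critical value 0.71), where chance alone gives about 1 in 20, or 3.9. In ΔGm15551 replicate 1, 3 members stood apart below. Cpt2 was at 369 CPM with the other ΔGm15551 mice between 557 and 605 CPM, Crat at 716 CPM with the others between 1018 and 1105 CPM, and Acad11 at 187 CPM with the others between 295 and 336 CPM. In wild type replicate 7, Eci2 was at 106 CPM with the others between 137 and 144 CPM, and the members together took 2.05% of the counts with the other wild type mice between 2.75% and 2.96%. In the opposite direction, Hsd17b10 was at 138 CPM in ΔGm15551 replicate 2 with the others between 65.6 and 81.8 CPM. Of the 6 values, 5 thus belonged to the pair of mice with low member values described above, and the causes were not tested.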

How the results depend on the processing

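Under each of the 24 alternative fits, 0 members were called. The number of members at an unadjusted p under 0.05, 0 as reported, was 1 without both mice that were lowest in the members (Acot9, p 0.0393; chosen after seeing the data), 1 without the 3 libraries with most muscle counts (Hsd17b10, p 0.0480) and 1 without wild type replicates 5, 6 and 7, whose mouse numbers in the labels form a separate, higher run that holds no ΔGm15551 mouse, so that run and genotype are tied (Acot9, p 0.0477). With 1 mouse left out it ranged from 0 to 1, and it was 1 without ΔGm15551 replicate 7 (Acsl5, p 0.0480) and without wild type replicate 7 (Acot9, p 0.0472). In these 5 fits the share of all genes at an unadjusted p under 0.05 was 3.04%, 4.03%, 1.91%, 1.85% and 2.91%, in that order. The 1 of 34 members is read against these shares, not as a result. Of 816 log2FC values of members under the alternatives, 129 changed sign, and 6 members (Cpt1a, Acads, Hsd17b10, Eci1, Acot9 and Mlycd) kept theirs throughout. Among the members given in full, the sign changed with the length and GC correction (also added after seeing the data) for Cpt1b (-0.0315) and Hadhb (0.0114), and with limma-voom for Acadm (-0.0055). With 1 mouse left out, the log2FC ranged from -0.21 to 0.0611 for Acsl1, -0.13 to 0.0252 for Acadl, -0.12 to 0.0656 for Hadhb, -0.13 to 0.15 for Acadm, -0.0295 to 0.0825 for Cpt1b and, with no change of sign, -0.35 to -0.0552 for Cpt1a, which was -0.45 without the 3 libraries with most muscle counts. It also ranged, with no change of sign, from -0.23 to -0.0616 for Acot9 (lowest size without wild type replicate 3; -0.32 without wild type replicates 5, 6 and 7), -0.19 to -0.0422 for Decr1 (without ΔGm15551 replicate 2 and wild type replicate 3), -0.12 to -0.0071 for Acadvl, 0.0835 to 0.20 for Acads (without wild type replicate 7 and ΔGm15551 replicate 1), 0.0126 to 0.33 for Hsd17b10 and 0.0880 to 0.22 for Mlycd (without ΔGm15551 replicates 5 and 1). The length and GC correction gave 0.0455 for Acads and 0.0698 for Mlycd. Hsd17b10 was at 0.47 without the 3 libraries with most muscle counts. The difference in the Cpt1b to Cpt1a ratio was 0.45 without these 3 libraries. That in the Etfa to Etfb ratio ranged from -0.24 to 0.13, and turned positive without ΔGm15551 replicate 1, ΔGm15551 replicate 5 or wild type replicate 3.

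Replicate numbers 2, 5 and 7 occur in both genotypes. Correlations of the deviations for shared numbers were -0.065, 0.054 and -0.395, and 0 mice correlated best with their own number. The correlations thus showed no pairing by number, but so few pairs cannot settle whether mice of the same number share more than that. A replicate block in these 6 mice called 0 members, with a median member log2FC of 0.22 and values of 0.26 for Acsl1, 0.0216 for Acadvl, 0.13 for Acadl, 0.21 for Hadhb and 0.10 for Decr1. Genotype alone in the same 6 mice gave a median of 0.20 and 0.22 for Acsl1, 0.0121 for Acadvl, 0.13 for Acadl, 0.21 for Hadhb and 0.10 for Decr1, so the shift came with the choice of mice. The summed member level, 27517 with mean transcript lengths, was 18824 with the longest transcript and 16207 with the exon union. With the exon union, the mean Cpt1b share was 98.2% (96.9% as reported) and the mean Acsl1 share 54.3% (62.1% as reported). Acsl6 alone among the members did not pass the filter on low counts.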
